A study of Mus musculus with 8 samples.

Results

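The jejunal transcripts described here come from 10 genes of fatty acid synthesis, elongation and desaturation (Acly, Acaca, Fasn, Scd1, Scd2, Elovl5, Elovl6, Fads1, Fads2 and Srebf1), chosen by name and matched to Ensembl identifiers, out of 56980 identifiers counted. All 10 were detected in each of the 8 libraries and passed the low count filter. RNA came from jejunal mucosa scraped from male mice. The 4 Adipoq-F2-KO mice carried floxed alleles of the short-chain fatty acid receptor FFA2 (Ffar2) and an Adiponectin-Cre transgene, which is active in adipocytes, and the 4 FFA2 fl/fl mice (floxed controls) were co-housed littermates carrying the floxed alleles only. Both genotypes were 12 weeks old when moved from chow to Western diet with 10% fructooligosaccharides (FOS), a fermentable fiber, for 2 weeks. The treatment label gives thermoneutral housing for all of them, while ambient housing is also given in the labels. The jejunum is not the tissue in which the Cre was driven. The scrapings hold mixed cell types, so fewer cells of a type cannot be told apart from less RNA per cell. The labels do not say which mice shared a litter. The p-values treat these mice as independent, and an effect of litter or shared housing was not tested.

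De novo fatty acid synthesis starts in the cytosol, where ATP citrate lyase (Acly) splits citrate to acetyl-CoA, acetyl-CoA carboxylase (Acaca) makes malonyl-CoA from it, and fatty acid synthase (Fasn) builds palmitate from both. Elongases (Elovl5, Elovl6) add carbons in the endoplasmic reticulum, stearoyl-CoA desaturases (Scd1, Scd2) make monounsaturated fatty acids, and Fads1 and Fads2 desaturate polyunsaturated ones. Srebf1 encodes a membrane-bound transcription factor of the SREBP family that, once cleaved, activates many of these genes, and the liver X receptor raises its transcription. In the small intestine these enzymes serve a tissue that mainly re-esterifies fatty acids absorbed from food.

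The libraries held 6007654 to 21712776 counts. Floxed library 3 and Adipoq-F2-KO libraries 3 and 4 held fewer than 10000000 and are called shallow, and the other 5 are called deep. The 12 villus enterocyte markers were all detected and summed to 908600 to 1017000 normalized counts (counts divided by the DESeq2 size factor) in floxed and 893700 to 1006000 in Adipoq-F2-KO libraries. Smooth muscle markers summed to 3823 to 33620 in floxed and 4214 to 13720 in Adipoq-F2-KO libraries, with the highest value in floxed library 3, and all 12 had a negative log2 fold change (median −0.91, 0 of 12 at an unadjusted p below 0.05). Adipocyte markers were unequal between the depth classes. Adipoq had 2, 3, 59 and 0 raw counts in floxed libraries 1 to 4 and 0, 3, 27 and 12 in Adipoq-F2-KO libraries 1 to 4, so that the shallow libraries held the most. Of the 10 adipocyte genes, Adipoq, Plin1, Lep, Retn and Cidea were too low to test, and the list sum was 2928 to 3844 in floxed and 2847 to 3351 in Adipoq-F2-KO libraries, most of it from Lipe and Pnpla2. Adipocytes also make the synthesis and desaturation enzymes, and the part of fat carried into a scraping in the results that follow was not tested. For muscle, fits with the smooth muscle list score as a covariate are among the alternatives.

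Levels differed widely between the genes. Per kilobase of exon, Scd1 was the highest at 2409 ± 1176 normalized counts (SD, n = 8 libraries), above 99.1% of 15711 genes, and Srebf1 followed at 590.2 ± 284. Scd2 (168 ± 64.0), Elovl6 (159 ± 37.3) and Fads2 (127 ± 14.5) formed a middle range, and Acly (88.5 ± 10.99), Elovl5 (68.7 ± 15.8) and Fasn (59.2 ± 10.1) lay below it. Fads1 (21.8 ± 4.59) and Acaca (7.48 ± 1.11) were lowest, Acaca being above 17.1% of genes. The ranges over libraries did not overlap between Scd1 and Srebf1, Fads2 and Acly, Fasn and Fads1, or Fads1 and Acaca. All other neighbours in this order had overlapping ranges, and Scd2 and Elovl6 exchanged places from library to library, with Scd2 the higher in 4 of 8.

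**Figure D1:**
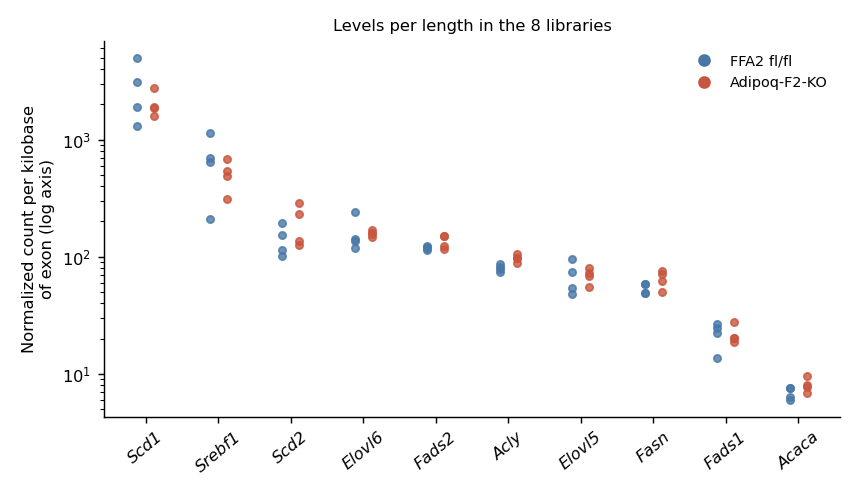
Normalized count per kilobase of exon (log axis) of the 10 genes in order of their mean, each point 1 library, blue for FFA2 fl/fl and red for Adipoq-F2-KO (n = 4 each). Scd1 lies above all other genes in every library and Acaca, at a mean of 7.48, below them.

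Some levels rest on windows shared with other genes. The order of all 10 genes was the same when each full count was divided by unshared windows alone. No reads were removed for this, so it does not show the order without shared reads. Of all 75-base windows in Acaca transcripts, 26.8% also occur in another gene, nearly all in the pseudogene Gm5182, which had 7 counts in the 8 libraries together. Per kilobase of windows found in no other gene, with all reads kept, Acaca stood at 10.1 normalized counts and Fads1 at 20.6. Per kilobase of exon they stood at 7.48 and 21.8. The stearoyl-CoA desaturase genes are close copies. Scd1 and Scd2 coding sequences (1065 and 1074 bases, GENCODE M21) were 89.6% identical, with a longest shared run of 147 bases, which is longer than a read. That run is shown with 15 bases on each side because a read within it fits both genes, and the capitals mark the 2 bases that differ.
Scd1 coding bases 508 to 684: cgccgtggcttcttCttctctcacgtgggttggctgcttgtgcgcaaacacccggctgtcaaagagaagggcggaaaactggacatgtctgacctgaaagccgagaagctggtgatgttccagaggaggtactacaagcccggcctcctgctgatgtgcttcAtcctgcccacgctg
Scd2 coding bases 517 to 693: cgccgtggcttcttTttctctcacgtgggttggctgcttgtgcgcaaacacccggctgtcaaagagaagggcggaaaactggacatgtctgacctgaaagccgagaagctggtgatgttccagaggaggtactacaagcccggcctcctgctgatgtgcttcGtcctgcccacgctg
Windows shared with any other gene made up 3.15% of Scd1 and 1.78% of Scd2, and 1.62% of Scd1 windows occur in Scd2. Scd1 had 119857 counts in all libraries together and Scd2 9165, and how reads that fit both were counted is not given in the sources used here.

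The question put to these genes was whether deletion of FFA2 in adipocytes went with a change in jejunal lipogenic mRNA. None of the 10 passed a Benjamini-Hochberg adjusted p of 0.05 (DESeq2, adjusted p = 0.9998 for each), where 6 of 15986 tested genes did, or 0.0375%. At an unadjusted p below 0.05 there was 1 of 10 (Acly) in DESeq2 and also 1 in edgeR, against 3.03% and 3.48% of all tested genes. Genes below that p and higher in Adipoq-F2-KO, as Acly was, made up 1.65% of those tested, and lower ones 1.38%. Log2 fold changes (Adipoq-F2-KO over floxed) were positive for 7 and negative for 3 members, with a median of 0.12, and 48.5% of all tested genes were positive with a median of −0.01. The genotypes did not overlap at 1 of 10, again Acly, against 2.12% of all tested genes.

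**Figure D2:**
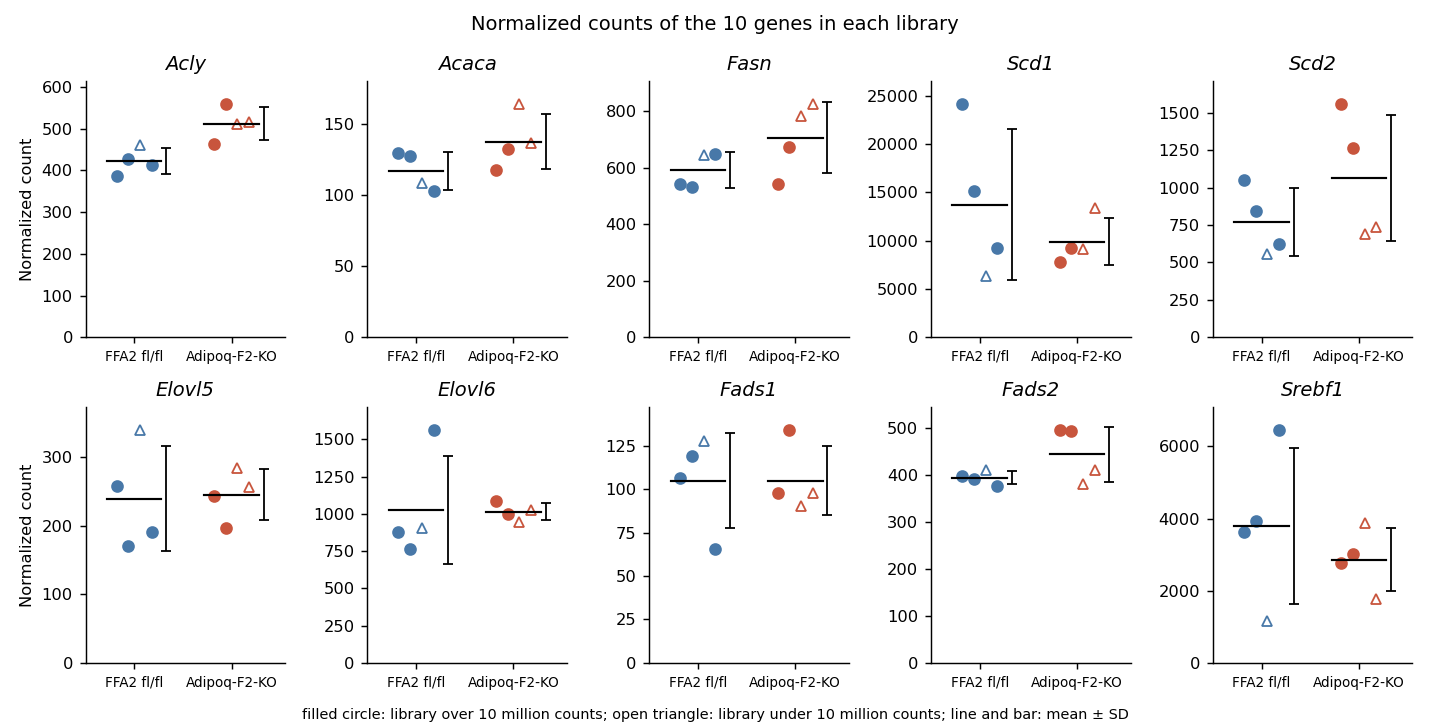
Normalized counts of each gene (vertical axes from 0) in the 4 FFA2 fl/fl and 4 Adipoq-F2-KO libraries, with filled circles for deep and open triangles for shallow libraries, and mean ± SD beside them. The genotypes are apart for Acly, and Scd1 and Srebf1 spread most within the floxed controls.

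Srebf1 (ENSMUSG00000020538, GRCm38 chr11:60199089-60222581, minus strand), the regulator of the set, varied more between mice than any of the enzymes. Its normalized counts were 3620, 3932, 1175 and 6448 in floxed libraries 1 to 4 and 2768, 3013, 3878 and 1767 in Adipoq-F2-KO libraries 1 to 4. The floxed controls held both the lowest and the highest value, a 5.49-fold range, and the Adipoq-F2-KO libraries lay between them. The log2 fold change was −0.41 with a 95% interval from −1.42 to 0.60 (SE 0.51, DESeq2 adjusted p = 0.9998), which leaves room for more than a halving and for a rise. Floxed library 3, with the highest smooth muscle sum, had the lowest Srebf1. Without that library the log2 fold change was −0.71 (DESeq2, unadjusted p = 0.00475, adjusted p = 0.195), a fit in which 8.29% of all genes had an unadjusted p below 0.05. It shrank to −0.03 without floxed library 4, the highest, to −0.15 with the smooth muscle covariate and to −0.06 with depth class as a second term, chosen after seeing the data (DESeq2 adjusted p = 1.00 in these fits). Within the 5 deep libraries the Adipoq-F2-KO mean was 0.619 times the floxed mean with no overlap, and within the 3 shallow ones it was 2.40 times the single floxed value, so the depth classes went opposite ways. Some reads are uncertain, since an exon of Srebf1 overlaps Rai1 on the opposite strand (3454 counts in all) and the strand setting of the counting is not given in the sources used here.

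Acly (ENSMUSG00000020917, chr11:100476353-100528000, minus strand), which supplies cytosolic acetyl-CoA, had 387, 428, 460.1 and 414 normalized counts in floxed libraries and 463, 559, 512 and 515 in Adipoq-F2-KO libraries. The lowest knockout value was just above the highest control value, and 4 of 4 Adipoq-F2-KO libraries were above all controls. The means were 422 ± 30.4 and 512 ± 38.9 (SD, n = 4 each), a 1.22-fold difference (95% interval 1.05 to 1.42, log2 fold change 0.29, SE 0.11). The unadjusted DESeq2 p was 0.0112 and the adjusted p 0.9998, so it did not pass. Adipoq-F2-KO was higher in both depth classes, 1.25-fold in the deep and 1.12-fold in the shallow libraries. Over 17 alternatives the log2 fold change stayed between 0.23 and 0.34, with adjusted p from 0.264 to 1.00. The unadjusted p went above 0.05 in 2 of them, without floxed library 1 (0.0617) and on leaving out Adipoq-F2-KO library 2 (0.0658).

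Acaca (ENSMUSG00000020532, chr11:84129672-84401651, plus strand), which commits acetyl-CoA to fatty acid synthesis, had 129.6, 128, 109 and 103 normalized counts in floxed and 118, 133, 164 and 137 in Adipoq-F2-KO libraries. The groups overlapped through the first knockout library. Its log2 fold change was 0.20 (SE 0.18, 95% interval −0.15 to 0.55, DESeq2 adjusted p = 0.9998). Fasn (ENSMUSG00000025153, chr11:120805846-120824547, minus strand) had 540.4, 532, 644 and 646 normalized counts in floxed libraries and 542, 673, 781 and 823.5 in Adipoq-F2-KO libraries. Here 3 knockout libraries were above all controls, and knockout library 1 lay among them. The means of Fasn were 591 ± 63.1 and 705 ± 126 (SD, n = 4 each; log2 fold change 0.25, SE 0.16, DESeq2 adjusted p = 0.9998). Without Adipoq-F2-KO library 1 its unadjusted p fell to 0.0114 (log2 fold change 0.36, DESeq2 adjusted p = 1.00), in a fit where 2.58% of genes were below 0.05. The log2 fold change of Fasn was 0.09 in the 5 deep libraries (DESeq2 adjusted p = 0.999) and 0.16 with the depth class term (DESeq2 adjusted p = 1.00). Fasn was lower in libraries with more counts (r = −0.76, exact permutation p = 0.0447, BH-adjusted over 10 members 0.223; rho = −0.60, exact p = 0.132; r = −0.84 without the 2 farthest and −0.35 within the deep libraries), and 2 of the 3 shallow libraries were Adipoq-F2-KO. Elovl5 had the same kind of relation to depth (r = −0.79, exact permutation p = 0.0261, BH-adjusted 0.223; rho = −0.74, exact p = 0.0458; r = −0.54 without the 2 farthest and −0.37 within the deep libraries). All 3 enzymes of the synthesis line thus had positive estimates. In the deep libraries Acaca was 1.04-fold and Fasn 1.06-fold higher in Adipoq-F2-KO, and for both the genotypes overlapped. In the shallow libraries, which hold a single floxed library, they were 1.39-fold and 1.25-fold higher.

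Both Acly and Fasn are known targets of Srebf1, and the bases before their starts are shown as examples of lipogenic promoters, Acly being the member with the smallest p. Of the 10 genes, 7 matched a RefSeq promoter entry (GRCm38.p6), with 9 start sites in all, and Scd1, Scd2 and Fads1 did not match. The 250 bases upstream of each start were searched on both strands for 4 motifs. The CCAAT box (CCAAT) occurred in 33.8% of 32851 RefSeq promoters, the GC box (GGGCGG) in 32.7%, the E-box (CACGTG) in 6.02% and a form of the sterol response element (TCACNCCAC) in 1.05%. The sterol response element form matched in 0 of the 9 windows. Capitals mark the CCAAT box and the GC box on either strand.
Acly, chr11:100528001-100528250, minus strand: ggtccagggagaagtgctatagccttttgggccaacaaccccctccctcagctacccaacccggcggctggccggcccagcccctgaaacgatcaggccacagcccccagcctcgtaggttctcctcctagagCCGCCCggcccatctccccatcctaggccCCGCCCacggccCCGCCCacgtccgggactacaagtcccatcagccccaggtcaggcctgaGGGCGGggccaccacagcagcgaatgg
Fasn, chr11:120824548-120824797, minus strand: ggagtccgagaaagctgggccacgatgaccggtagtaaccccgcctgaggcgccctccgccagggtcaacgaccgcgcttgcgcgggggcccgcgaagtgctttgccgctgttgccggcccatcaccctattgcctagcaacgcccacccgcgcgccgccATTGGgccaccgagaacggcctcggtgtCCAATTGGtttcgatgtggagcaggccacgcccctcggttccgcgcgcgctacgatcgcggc
Acly had 4 GC boxes and no CCAAT box, and Fasn had 3 CCAAT boxes, of which a pair on opposite strands overlap, and no GC box. Elovl5 had 2 CCAAT boxes and the set's 1 E-box, Fads2 had 1 GC box, and Acaca and Elovl6 had none of the 4. The RefSeq starts matched for Acaca and Fads2 lie inside the genes as annotated. The Acaca window (chr11:84195188-84195437) is thus not the stretch before the gene start given above. Most of the Fads2 window (chr19:10101504-10101753) is likewise within its gene. The start sites of Srebf1 differed among themselves. There was 1 CCAAT box at the outermost, 2 GC boxes at the next and 1 CCAAT box with 2 GC boxes at the innermost. The next and innermost windows lie within Srebf1 as annotated. These are letter matches in a short window and say nothing of binding.

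The desaturases that make monounsaturated fatty acids had estimates of opposite sign, neither past the threshold. Scd1 (ENSMUSG00000037071, chr19:44394455-44407879, minus strand) had 24100, 15180, 6372 and 9197 normalized counts in floxed libraries and 7779, 9197, 9084 and 13380 in Adipoq-F2-KO libraries. The floxed controls ranged 3.78-fold and enclosed every knockout value. Its log2 fold change was −0.48 (SE 0.45, 95% interval −1.36 to 0.40, DESeq2 adjusted p = 0.9998). It rested much on floxed library 1, the highest, without which it was −0.06 (unadjusted p = 0.835, DESeq2 adjusted p = 1.00), and it ran from there to −0.93 in the 5 deep libraries. Scd2 (ENSMUSG00000025203, chr19:44293674-44306864, plus strand) had 1053, 842, 554 and 625 normalized counts in floxed and 1557, 1268, 693 and 737 in Adipoq-F2-KO libraries. Knockout libraries 1 and 2 stood above all controls and libraries 3 and 4 among them, for a log2 fold change of 0.47 (SE 0.28, 95% interval −0.09 to 1.02, DESeq2 adjusted p = 0.9998).

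Among deep libraries Scd1 was 0.525 times and Scd2 1.68 times the floxed mean, each with no overlap. For Scd1 this was nearly a tie, since floxed library 4 and Adipoq-F2-KO library 2 both round to 9197. Among shallow libraries both genes were above the floxed value, by 1.76-fold and 1.29-fold. With depth class as a second term Scd2 had a log2 fold change of 0.62 and an unadjusted p of 6.05e-04, in a fit where 2.46% of genes were below 0.05, and it still missed the adjustment (DESeq2, adjusted p = 0.472). Over all 17 alternatives the adjusted p of Scd2 ran from 0.137 to 1.00 and its log2 fold change from 0.23 to 0.75. The ratio of Scd2 to Scd1 per kilobase, which does not depend on library size, was 0.0391, 0.0496, 0.0779 and 0.0609 in floxed libraries and 0.179, 0.124, 0.0683 and 0.0493 in Adipoq-F2-KO libraries. Its first 2 knockout values were above all controls and the other 2 within them, and the mean log2 ratio was 0.75 higher in Adipoq-F2-KO (exact permutation test, two-sided, p = 0.200, BH-adjusted over 4 ratios 0.800). The smallest p this design allows is 0.0286. Without Adipoq-F2-KO library 1 the difference was 0.44 (exact permutation p = 0.400), and in the 5 deep libraries it was 1.60 (exact permutation p = 0.200, the smallest that 2 against 3 libraries allow).

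**Figure D3:**
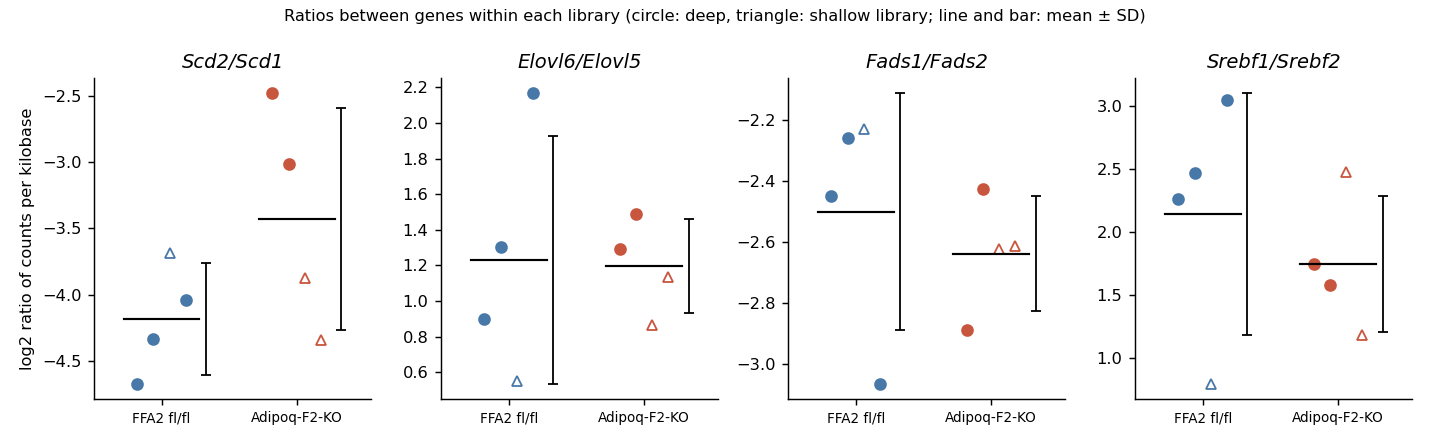
Log2 ratios of counts per kilobase within each library for Scd2/Scd1, Elovl6/Elovl5, Fads1/Fads2 and Srebf1/Srebf2, with circles for deep and triangles for shallow libraries and mean ± SD (n = 4 per genotype). The genotypes overlap in all 4 ratios, and the 2 deep Adipoq-F2-KO libraries lie highest for Scd2/Scd1.

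Of the elongases, Elovl5 (ENSMUSG00000032349, chr9:77917364-77984519, plus strand), which extends polyunsaturated fatty acids, had 258, 169.7, 339 and 190.4 normalized counts in floxed and 243, 196, 284 and 256 in Adipoq-F2-KO libraries. The knockout values all fell within the range of the controls (log2 fold change 0.04, SE 0.23, 95% interval −0.41 to 0.50, DESeq2 adjusted p = 0.9998). Elovl6 (ENSMUSG00000041220, chr3:129532355-129638495, plus strand), which extends palmitate to stearate, had 879, 765, 906 and 1563 normalized counts in floxed and 1089, 1003, 947 and 1025 in Adipoq-F2-KO libraries. Floxed library 4 was above every other library, and the 4 knockout libraries lay close together above the other 3 controls. Its log2 fold change was −0.02 (SE 0.21, 95% interval −0.43 to 0.40, DESeq2 adjusted p = 0.9998) and turned to 0.27 without floxed library 4 (unadjusted p = 0.0219, DESeq2 adjusted p = 1.00), a fit with 1.78% of genes below 0.05. The difference in the log2 ratio of Elovl6 to Elovl5 was −0.03 (exact permutation test, two-sided, p = 0.914, BH-adjusted 0.914).

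Fads1 (ENSMUSG00000010663, chr19:10182888-10196877, plus strand) and Fads2 (ENSMUSG00000024665, chr19:10062765-10101746, minus strand) are neighbours that desaturate polyunsaturated fatty acids at successive steps. Fads1 had 107, 119, 128 and 65.8 normalized counts in floxed and 97.9, 134, 90.1 and 97.8 in Adipoq-F2-KO libraries, and the genotypes overlapped (log2 fold change 0.03, SE 0.25, 95% interval −0.46 to 0.52, DESeq2 adjusted p = 0.9998). Fads2 had 399, 391, 409.9 and 377 normalized counts in floxed and 496, 493, 380.4 and 409.8 in Adipoq-F2-KO libraries. The controls of Fads2 were tight (394 ± 13.8, SD, n = 4), and as for Scd2 the first 2 knockout libraries were high and the other 2 among the controls (log2 fold change 0.19, SE 0.13, 95% interval −0.06 to 0.44, DESeq2 adjusted p = 0.9998). Among the deep libraries Fads2 was 1.27-fold higher without overlap, and among the shallow 0.964 times the floxed value. The log2 ratio of Fads1 to Fads2 differed by −0.14 (exact permutation test, two-sided, p = 0.600, BH-adjusted 0.800).

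**Figure D4:**
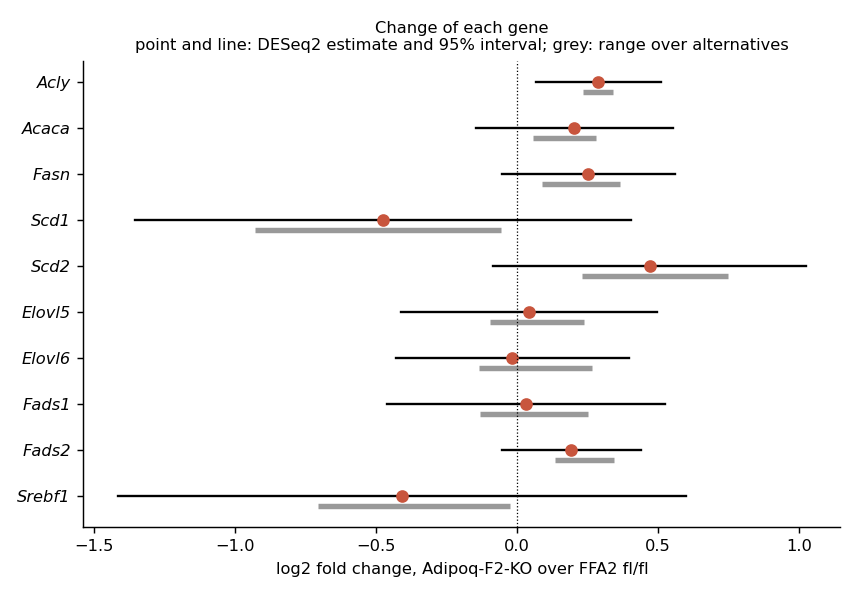
Log2 fold change of each gene, Adipoq-F2-KO over FFA2 fl/fl (n = 4 each), with its DESeq2 95% interval in black and the range of estimates over 17 alternatives in grey. The interval of Acly, 0.07 to 0.51, is the only 1 of 10 that does not include 0, and Srebf1 and Scd1 have the widest.

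In the 5 deep libraries (3 floxed, 2 Adipoq-F2-KO) 5 members did not overlap between genotypes, against 23.6% of all tested genes. Acly, Scd2 and Fads2 were higher and Scd1 and Srebf1 lower. Scd1 is among them only by a difference lost in rounding (9197 in floxed library 4 and in Adipoq-F2-KO library 2). In the fit of the deep libraries 4 members (Acly, Scd2, Fads2, Srebf1) had an unadjusted p below 0.05, against 5.7% of genes. The adjustment was passed by 0 members (DESeq2, adjusted p from 0.137 for Scd2), against 0.501% of genes. The shallow libraries hold 1 floxed and 2 Adipoq-F2-KO mice, too few for a test, and there Scd1, Srebf1 and Fads2 lay on the other side of the floxed value. Acly and Scd2 were the 2 members whose Adipoq-F2-KO libraries were above the floxed ones in both classes, which was so for 2.87% of all tested genes. The shallow libraries were also those with the most Adipoq counts. Beside the depth class term, other fits had more than 1 member at an unadjusted p below 0.05. They added Scd2 to Acly with a smooth muscle covariate (3.18% of genes below 0.05) or without Adipoq-F2-KO library 4 (2.3%). A replicate block, whose numbers did not pair the mice, also added Scd2 (2.71%). Leaving out Adipoq-F2-KO library 3 added Scd2 and Fads2 (2.77%), and Srebf1, Elovl6 or Fasn were added in the fits given above. Scd2 alone was below 0.05 without floxed library 1 (unadjusted p = 0.0204, 2.11% of genes), and 0 members were without Adipoq-F2-KO library 2 (3.51%). Limma-voom kept Acly alone (4.3% of genes).

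Variation between mice of 1 genotype was wide for most of these genes. The within-genotype SD on the log2 scale was 0.81 for Srebf1, 0.64 for Scd1 and 0.50 for Scd2, where the median of 10225 genes with a mean of at least 50 was 0.21, and 7 of 10 members exceeded that median. Acly had the smallest, at 0.11. Over the 8 libraries the members did not rise and fall as a group, and 23 of 45 pairwise correlations of log2 values were positive. Scd2 with Fads2 had the highest (Pearson's r = 0.81 with an exact permutation p of 0.0178, 0.694 after BH adjustment over 45 pairs; Spearman's rho = 0.57, exact p = 0.151), and r was 0.03 without the 2 libraries farthest from the median of Scd2, 0.90 within the 5 deep libraries and 0.75 after centring each genotype on its mean. Elovl6 with Fads1 was the most negative (r = −0.79, exact permutation p = 0.0309, 0.694 after adjustment over the pairs; rho = −0.55, exact p = 0.171), with r = −0.24 without the 2 farthest and −0.84 within the 5 deep libraries. Acly with Fasn gave r = 0.69 (exact permutation p = 0.0636, BH-adjusted 0.715; rho = 0.71, exact p = 0.0576; r = 0.74 without the 2 farthest). Srebf1 had negative correlations with both of these targets, r = −0.36 with Acly (exact permutation p = 0.384, BH-adjusted 0.923; rho = −0.45, exact p = 0.267; r = −0.47 without the 2 farthest) and r = −0.24 with Fasn (exact permutation p = 0.565, BH-adjusted 0.925; rho = −0.24, exact p = 0.582; r = 0.09). Against the smooth muscle marker sum, Srebf1 gave r = −0.83 (exact permutation p = 0.0126, BH-adjusted over 10 members 0.126; rho = −0.45, exact p = 0.267), r = −0.66 without the 2 farthest libraries and r = −0.20 within the 5 deep libraries. Of all 65 relations computed (10 with smooth muscle, 10 with depth, 45 pairs), 0 passed the adjustment.

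In the rest of the pathway 0 genes passed the adjustment (DESeq2). Of 14 genes that supply acetyl-CoA, malonyl-CoA and NADPH or act beside them, 12 were tested, 8 with positive and 4 with negative log2 fold changes (median 0.06), and 0 had an unadjusted p below 0.05. Acss2, which makes acetyl-CoA from acetate, was 0.03 (SE 0.18). The citrate carrier gene Slc25a1 was 0.15 (SE 0.20), and the NADPH sources Me1 and G6pdx were 0.17 (SE 0.34) and 0.16 (SE 0.13), all on the log2 scale with a DESeq2 adjusted p of 0.9998. Acss2 and G6pdx each share exon positions with a gene on the opposite strand, Gss (5578 counts) and Ikbkg (3316 counts). Me1 followed the pattern of Srebf1 in that floxed library 3 had its lowest value, 146 normalized counts against 323 to 631 in the other controls. That library was also lowest for Acss2 (146) and Slc25a1 (908), but not for G6pdx. The mean of the 12 tested genes (log2, each centred on its own mean) was lowest there too, at −0.30. Thrsp, a lipogenic regulator of liver and fat, was too low to test, with raw counts of 3, 14, 6 and 4 in floxed and 4, 6, 7 and 20 in Adipoq-F2-KO libraries, and Olah had 0 counts in all.

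Of 18 further elongation and desaturation genes, 13 were tested, 7 positive and 6 negative (median 0.01), with 0 at an unadjusted p below 0.05. Elovl1, an elongase of saturated chains, was −0.12 (SE 0.14) and Hsd17b12, a reductase of the elongation cycle, was 0.02 (SE 0.15). Each had a DESeq2 adjusted p of 0.9998. Elovl2, Elovl3, Elovl4, Scd3 and Scd4 were too low to test, which left Scd1 and Scd2 as the tested stearoyl-CoA desaturases. Of 22 regulators all were tested, 9 positive and 13 negative (median −0.02).

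Nr1h3, which encodes liver X receptor alpha, was the single regulator of 22 with an unadjusted p below 0.05, against 3.03% of all tested genes. Its normalized counts were 675, 671, 562 and 655 in floxed libraries and 471, 612, 518 and 509.5 in Adipoq-F2-KO libraries, so 3 of 4 knockout values lay below all controls. The log2 fold change was −0.28 (SE 0.12, unadjusted p = 0.0234, DESeq2 adjusted p = 0.9998). Its annotation overlaps that of Gm13783 on the same strand (78 counts in all). Leaving out floxed library 1 or 2, or Adipoq-F2-KO library 1, 3 or 4, left 0 pathway genes at an unadjusted p below 0.05. Usf1, which encodes an E-box binding factor, was the only regulator of 22 without overlap (2.12% of all tested genes), higher in 4 of 4 Adipoq-F2-KO libraries (log2 fold change 0.23, SE 0.14, DESeq2 adjusted p = 0.9998), and it is named because of that, after its values were seen. It shares exons with Tstd1 on the same strand (1140 counts in all, where Usf1 had 1638).

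Of the SREBP machinery itself 0 genes had an unadjusted p below 0.05. Insig1, which retains SREBPs in the endoplasmic reticulum, was 0.07 (SE 0.29), its partner Scap −0.05 (SE 0.16), and Mlxipl, the carbohydrate-responsive factor, −0.17 (SE 0.22), all log2 fold changes at a DESeq2 adjusted p of 0.9998. Srebf2, the cholesterol counterpart of Srebf1, had 962, 908, 868 and 994 normalized counts in floxed and 1054, 1285, 891 and 993 in Adipoq-F2-KO libraries, a much narrower range than that of Srebf1 (log2 fold change 0.18, SE 0.13, DESeq2 adjusted p = 0.9998). The ratio of Srebf1 to Srebf2 per kilobase was 4.798, 5.52, 1.73 and 8.27 in floxed libraries and 3.35, 2.99, 5.55 and 2.27 in Adipoq-F2-KO libraries. Srebf1 was thus the higher of the pair per kilobase in all 8 libraries, and the genotypes overlapped (log2 difference −0.40, exact permutation test, two-sided, p = 0.514, BH-adjusted over 4 ratios 0.800). That difference was −0.93 among deep libraries only, −0.85 when floxed library 3 was left out and −0.09 when floxed library 4 was (exact permutation p = 0.200, again the smallest that 2 against 3 libraries allow, 0.171 and 0.914).

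**Figure D5:**
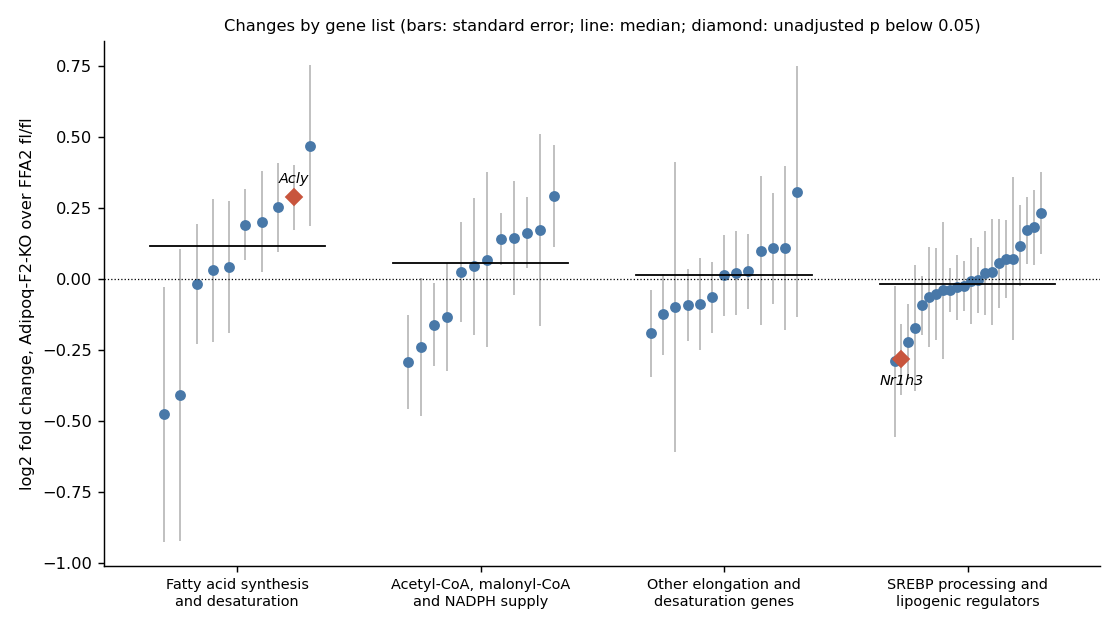
Log2 fold changes, Adipoq-F2-KO over FFA2 fl/fl, of the 10 genes and of the tested genes of 3 further lists (12, 13 and 22), each point a gene with its standard error, lines at the list medians and diamonds at an unadjusted p below 0.05. Medians lie between −0.02 and 0.12, and Acly and Nr1h3 are the 2 diamonds.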

How the data were processed

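Jejunal mucosa RNA was sequenced from 4 FFA2 fl/fl and 4 Adipoq-F2-KO mice (poly-A selected, stranded kit, single 75-base reads). The authors trimmed reads with Trimmomatic, aligned them with STAR and assigned them to Ensembl genes with featureCounts. What was deposited is raw read counts, 1 file per library, neither normalized nor pooled. The submitters' processing notes name GRCm38 and mm10. Tool versions, the annotation release and the strand setting are not given in the sources used here, and the labels give both ambient and thermoneutral housing. Symbols and positions are from GENCODE M21 (GRCm38), which named 52125 of 56980 identifiers.

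Groups came from the sample titles. The 15986 genes that reached 10 counts in 4 or more libraries were tested with DESeq2 1.42.0 in R 4.3.3, the tool of the study, with genotype as the only term, a two-sided Wald test and Benjamini-Hochberg adjustment over all tested genes. An adjusted p was missing for 8 genes. edgeR 4.0.16 and limma 3.58.1 (voom) were alternatives, beside TMM factors, other count filters, a replicate block, the 5 deep libraries, a smooth muscle covariate and leaving out each library. A depth class covariate was added after seeing the data. Scripts were tested on simulated data. Ratios were tested by exact permutation. The 12 library pairs within a genotype differed beyond sampling noise (chi-square per gene 5.04 to 56.6). Intervals cover 95%, and reads without molecular identifiers make counting error a lower limit.

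The members, lists and tests were chosen with earlier results of these data known. All 10 members are named, with 12 fixed pathway genes, up to 3 per pathway list with the smallest unadjusted p below 0.05, and for each member the genes most like it over the 8 libraries. A result for 1 gene is left out of the text.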

Additional observations from a re-analysis of the deposited data

How the results depend on the processing

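Under all 17 alternatives 0 of 10 members passed the adjustment, the median log2 fold change of the members stayed between 0.09 and 0.19, and Acly, Acaca, Fasn, Scd1, Scd2, Fads2 and Srebf1 kept their direction, though Scd1 and Srebf1 came close to 0 in some (Scd1 −0.93 to −0.06, Srebf1 −0.71 to −0.03). The number of all genes called, 6 in the reported fit, was 2 with edgeR, 1 with limma-voom, 3 without a count filter, 78 in the 5 deep libraries, 3 with the depth class covariate and 1 to 109 with 1 library left out, the highest without floxed library 3. Members at an unadjusted p below 0.05 numbered 4 in the deep libraries, 2 with the smooth muscle covariate, 2 with depth class and 0 to 3 with 1 library left out (0 without knockout library 2, 3 without knockout library 3, and 2 without floxed library 3 or 4 or knockout library 1 or 4). Pathway genes at that threshold, 1 in the reported fit, were 2 with limma-voom (4.3% of all genes were), 3 in the deep libraries (5.7%), 2 with depth class (2.46%) and 0 to 5 with 1 library left out, the highest without floxed library 3 (8.29%). Estimates near 0 changed sign. Elovl6 was 0.0334 with limma-voom, 0.0366 with the smooth muscle covariate, 0.0229 with depth class and −0.14 to 0.27 with 1 library left out, Elovl5 was −0.0514 with depth class and −0.10 to 0.24, and Fads1 was −0.13 to 0.12. The Elovl6/Elovl5 log2 ratio difference was −0.26 to 0.28. The cause was not tested. The replicate numbers did not pair the mice (correlations of deviations 0.54, 0.29, 0.01 and −0.42 for numbers 1 to 4), so the replicate block rests on an arbitrary pairing. With it 11 genes were called and Elovl6 was 0.0429. There 2 members had an unadjusted p below 0.05, Acly and Scd2 (Scd2 0.44, DESeq2 unadjusted p = 4.18e-04, adjusted p = 0.334). At 4 mice per genotype the intervals of Srebf1 and Scd1 span more than 1 log2 unit to the negative side, so a fall of that size is not excluded.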

Other observations

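The genes whose log2 values followed each member most closely over the 8 libraries were drawn from 10225 genes with a mean of at least 50 normalized counts, and each r was picked among the highest of that many and has no test. For Acly they included Hmgcs1, which makes the precursor of cholesterol synthesis (r = 0.95), and Eif4e3 (0.95), whose log2 fold changes were 0.33 and 0.29. For Srebf1 they were Agpat3, an acyltransferase of phospholipid synthesis (0.98), Dot1l (0.98) and Uqcr11 (0.97). For Scd1 they were Rxra, the partner receptor of the liver X receptors (0.96), Tmem98 (0.94) and Mif4gd (0.93). Scd2 was closest to Ndfip2 (0.98), Fasn to Ctnnal1 (0.97), Acaca to Chchd2 (0.94), Elovl5 to Zhx2 (0.99), Elovl6 to Paqr4 (0.99), Fads1 to Oplah (0.97) and Fads2 to Pik3cg (0.95). None of these 10 closest genes was another member.

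Among all tested genes 48.5% had a positive log2 fold change and 3.03% an unadjusted p below 0.05. Macrophage markers had positive log2 fold changes for 8 of 8 genes (median 0.54, 1 at an unadjusted p below 0.05, Lyz2), with sums of 173 to 549 in floxed and 370.2 to 696 in Adipoq-F2-KO libraries. Proliferation markers were positive for 10 of 12 (median 0.21, 2 at an unadjusted p below 0.05, Mki67 and Top2a), and 6 of 7 tested B and plasma cell markers were positive (median 0.87, 0 at that threshold). T cell markers were positive for 6 of 8 (median 0.11, 1 at that threshold, Cd4). Crypt markers had a median of −0.08, fibroblast markers 0.01, and enteric neuron markers −0.08 over 2 tested genes, with 0 at that threshold. Of 8 exocrine pancreas genes 1 could be tested (−0.02) and Prss1 and Amy2a5 had 0 counts. Of these lists no gene passed the adjustment (DESeq2).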
